A study of Mus musculus with 11 samples.

Results

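Histone genes were examined in poly(A)-primed RNA-seq libraries of single mouse embryos at the 8-cell stage. Members were all protein-coding genes whose symbol began with Hist1h to Hist4h, H2af or H3f3, together with *H1f0* and *H1foo*, and 80 of the 54146 genes in the tables met this rule. Of these, 67 carried Hist symbols and are called replication-dependent here, and 13 are called variant histone genes. All embryos were C57BL/6, from natural matings of *Prdm10* Δ/+ mice, and were taken at E2.5. The 6 control embryos were *Prdm10* +/+ or Δ/+, which the labels do not separate, and the 5 mutant embryos were Δ/Δ for a deletion of exon 5. Embryos were assigned to these groups by qRT-PCR of that exon in their cDNA. Each library held 1 embryo and was made by Smart-seq2 with an oligo-dT primer. Batch 1 (3 controls, 2 mutants) had 16 cycles of PCR pre-amplification and batch 2 (3 controls, 3 mutants) had 13.

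Replication-dependent histone genes supply the bulk of the core and linker histones that package newly copied DNA, and their mRNAs accumulate in S phase. These mRNAs normally end in a conserved stem-loop instead of a poly(A) tail, and the stem-loop is bound by SLBP. Variant histones such as H3.3 and H2A.Z are made throughout the cell cycle from ordinary polyadenylated mRNAs and are placed in chromatin without DNA replication. Oligo-dT primers anneal to stretches of A, so mRNAs without a tail are expected to be recovered poorly by this kind of library, and their counts do not measure the total histone mRNA of an embryo.

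The stem-loops and poly(A) signals of the members on which the results turn were read from GENCODE vM21 transcripts (GRCm38). For the stem-loop, the 14 bases before the 16-base core are shown in lower case and the core in capitals. Of the genes printed with a core, only *Hist1h2ap*, *Hist1h2ao* and *Hist1h2ae* have an unbroken run of at least 8 A in these bases. For the variant gene *H3f3a* the last 30 bases of a transcript are shown, with the poly(A) signal in capitals.
Hist1h2ap: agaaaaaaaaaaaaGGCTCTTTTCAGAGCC
Hist1h2ao: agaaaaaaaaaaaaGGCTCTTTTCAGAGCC
Hist1h2ae: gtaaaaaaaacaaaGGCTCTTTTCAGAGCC
Hist1h2ab: ttaaccaaaacaaaGGCTCTTTTCAGAGCC
Hist1h4d: acccaaaaaccaaaGGCCCTTTTCAGGGCC
H2afx: cacacctccacaaaGGCCCTTTTAAGGGCC
H3f3a: tgaaaaatAATAAAagtaccaatagaagaa

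These stretches lie at chr13:21833029-21833058 (minus strand) for *Hist1h2ap*, chr13:21810884-21810913 (plus) for *Hist1h2ao*, chr13:23570668-23570697 (minus) for *Hist1h2ae*, chr13:23751558-23751587 (plus) for *Hist1h2ab*, chr13:23581936-23581965 (plus) for *Hist1h4d*, chr9:44335226-44335255 (plus) for *H2afx* and chr1:180800832-180800861 (minus) for *H3f3a*. A stem-loop matching the consensus was found in 46 of the 67 replication-dependent genes and in 1 of the 13 variant genes, *H2afx*, against 0.148% of 58797 protein-coding transcripts. It lay within 100 bases of the annotated transcript end in 23 of the 46, and was followed by 3 bases in *Hist1h2ap*, 770 in *Hist1h4d* and 822 in *H2afx*. The core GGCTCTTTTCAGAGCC was shared by 26 members. A poly(A) signal (AATAAA or ATTAAA) lay in the last 50 bases in 17 replication-dependent and 9 variant genes, against 50.2% of protein-coding transcripts. An unbroken run of at least 8 A within the 50 bases before the stem-loop was present in 3 replication-dependent genes. These were *Hist1h2ap* and *Hist1h2ao*, each with a run of 12, and *Hist1h2ae*, with a run of 8. Anywhere in the transcript, such a run was present in 7 of the 67 replication-dependent and 2 of the 13 variant genes. The background was 17.7% of protein-coding transcripts. Matches are on the transcript strand and describe the annotated sequence only. A gene was counted if any of its transcripts matched, while the backgrounds are shares of transcripts, those of the members included. The counts and the backgrounds are thus not in the same unit.

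Expression is given as TPM, which is per length and can be compared between genes. The 67 replication-dependent genes summed to 2906 ± 935 TPM (SD, n = 6) in controls and 2685 ± 2289 TPM (SD, n = 5) in mutants. The 13 variant genes summed to 4947 ± 672 TPM in controls and 4512 ± 360 TPM in mutants. The replication-dependent share of histone TPM thus ranged from 2.98% to 53.1% over the 11 embryos. Between the lowest and the highest embryo the replication-dependent sum differed 35.2-fold and the variant sum 1.44-fold. Since each library is a whole embryo, fewer cells in S phase and less mRNA per cell cannot be told apart.

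**Figure D1:**
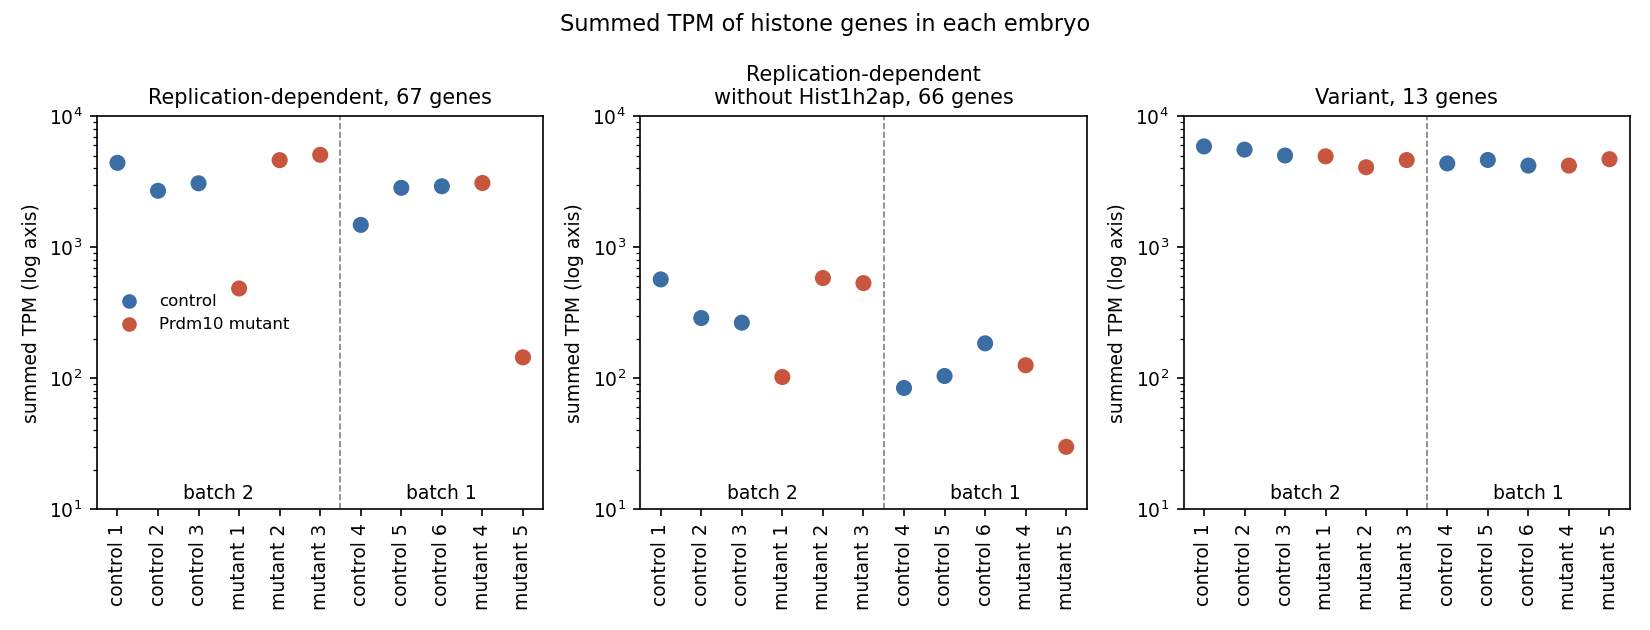
Summed TPM (log axis) in each embryo for replication-dependent genes, the same genes without Hist1h2ap, and variant genes, with batch 2 left and batch 1 right of the dashed line. Each point is 1 embryo. Mutant 1 (484 TPM) and mutant 5 (144 TPM) lie below all other embryos in the first panel, while the variant sums lie between 4081 and 5889 TPM.

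A single gene held most of the replication-dependent signal. *Hist1h2ap*, which encodes a core histone H2A, lies on chromosome 13 from 21833026 to 21833507 (minus strand) and averaged 2545 TPM, rank 24 among 21893 protein-coding genes. In batch 2 its TPM was 3844, 2411 and 2812 in the controls and 382, 4042 and 4546 in the mutants. In batch 1 it was 1397, 2740 and 2737 in the controls and 2969 and 114 in the mutants. Mutants 1 and 5 were thus the lowest embryos, from different batches, and each of the other 3 mutants lay above at least 5 of the 6 controls. *Hist1h2ap* made up 78.9% to 96.3% of the replication-dependent TPM of an embryo. Its assignment is uncertain, because 92.6% of its 75-base windows also occur in *Hist1h2ao*, including the stretch printed above, and RSEM left *Hist1h2ao* at 0 in all embryos but control 4 (3.62 TPM).

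The remaining replication-dependent genes were at much lower levels. Only 7 of the 67 averaged at least 10 TPM, 30 averaged at least 1 TPM, and 5 were listed at 0 in all embryos. The H2A genes other than *Hist1h2ap* summed to 109 TPM on average, the H3 genes to 58.4, the linker histone H1 genes to 41.6, the H4 genes to 37.9 and the H2B genes to 13.9. The next highest genes were *Hist1h2ae* (H2A, 63.2 TPM), *Hist2h3b* (H3, 34.6), *Hist1h1b* (H1, 29.6), *Hist1h4d* (H4, 24.1), *Hist1h2ab* (H2A, 20.4) and *Hist2h3c2* (H3, 10.7). *Hist1h4i*, *Hist1h1a*, *Hist2h2ac*, *Hist1h1e* and *Hist1h2bj* averaged between 3.36 and 7.44 TPM. *Hist1h2ac* and *Hist1h2be*, whose longest runs of A were 15 and 11 bases, averaged 0.19 and 0.14 TPM. Whether runs of A bear on the level of a gene was not tested. More than 50% of the 75-base windows of 31 replication-dependent genes also occur in another gene, against 0 of 13 variant genes. All windows of *Hist2h3b* are shared with another annotated gene, so its level is uncertain.

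**Figure D2:**
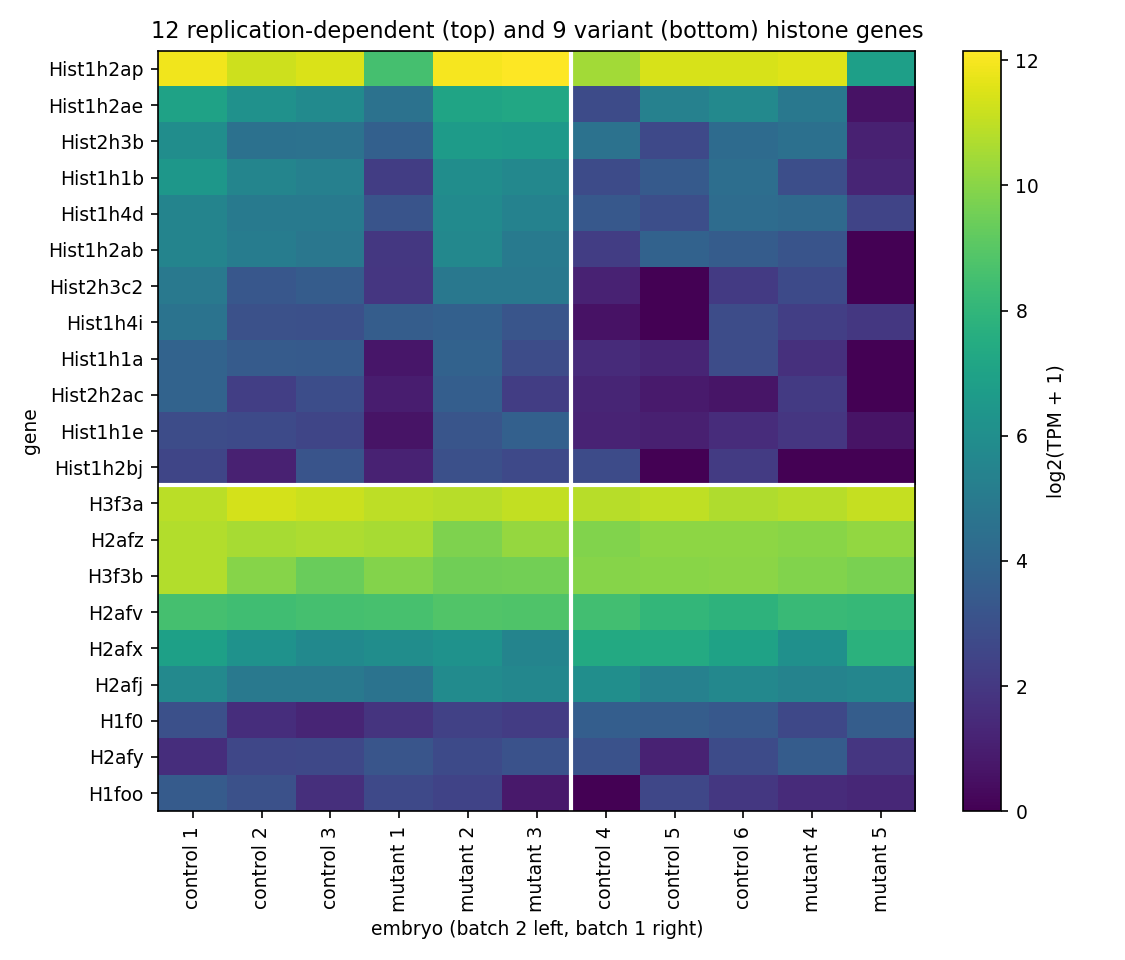
Heat map of log2(TPM + 1) for the 12 replication-dependent genes (above the white line) and 9 variant genes (below it) with the highest mean TPM, in each of 11 embryos, with batch 2 left of the vertical line. The columns of mutants 1 and 5 are darker than those of their batch in most upper rows, and not in most lower rows.

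Mutants 1 and 5 were low across most of the replication-dependent genes with a mean expected count above 10, and not across variant genes. Among 14 replication-dependent genes with a mean expected count above 10, mutant 1 was the lowest of the 6 embryos of batch 2 for 12 (85.7%), and was lowest for 14.3% of all 10617 genes above that count. Mutant 5 was the lowest of the 5 embryos of batch 1 for 11 of the 14 (78.6%), and for 19.9% of all genes. Among 9 variant genes each of these embryos was the lowest for 1. The replication-dependent H1, H2A and H3 sums were lowest in mutants 1 and 5 within their batches, as was the H4 sum of mutant 1. The H4 sum of mutant 5 (11.5 TPM) was above that of control 5 (9.62 TPM). The H2B sum of mutant 1 (16.4 TPM) was above those of control 2 (8.33 TPM) and control 3 (15.1 TPM). That of mutant 5 (6.16 TPM) was above that of mutant 4 (5.07 TPM). *Hist1h2ae* read 128, 69.9 and 54.7 TPM in the controls and 23.3, 136 and 157 TPM in the mutants of batch 2, and 5.76, 39.9 and 52.0 TPM in the controls and 28.1 and 0.50 TPM in the mutants of batch 1. These embryos were singled out after their values were seen, so the counts are a description with no test. Neither had the shallowest library, with 8150117 and 5511504 summed expected counts in a range of 3534735 to 8265840. The 8 markers of the 8-cell embryo summed to 4943 to 6288 TPM over all embryos, most of it *Dppa3* (4240 to 5987 TPM), and *Sox2* was at or near 0 (at most 1.85 TPM). The other markers varied more. *Pou5f1* ran from 34.2 to 486 TPM, with 59.8 in mutant 1 and 486 in mutant 5, and *Nanog* from 6.10 to 52.1 TPM.

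The spread between embryos of the same group and batch was computed as the SD of log2 normalised counts for the 22 members that passed the filter (a mean normalised count above 10). Its median was 1.51 for 13 replication-dependent genes and 0.50 for 9 variant genes, beside 0.52 for all 10448 genes tested. It was above the 90th percentile of all genes for 10 of the 13 replication-dependent genes and for 1 variant gene, *H1foo*, the oocyte linker histone. Neither medians nor percentiles were matched for mean count, which was lower in most replication-dependent genes than in most variant genes. *H1foo* and *H2afy*, with the lowest mean counts of the 9 variant genes (14.8 and 40.8), had the largest SDs among those 9 (1.48 and 0.96). *Hist1h2ap* had an SD of 1.70 at a mean normalised count of 4997, and *H3f3a*, at 8098, one of 0.18. Much of the spread of *Hist1h2ap* lay with mutants 1 and 5: with both left out, an alternative chosen after seeing their low levels, its SD was 0.48 and that of *H3f3a* 0.18. The median was then 0.78 for the 13 replication-dependent genes, 0.42 for the variant genes and 0.51 for all genes tested, and 3 of the 13 (*Hist1h2bc*, *Hist1h4i* and *Hist2h3c2*) were above the 90th percentile. Leaving out embryos for their low levels lowers the spread by construction.

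**Figure D3:**
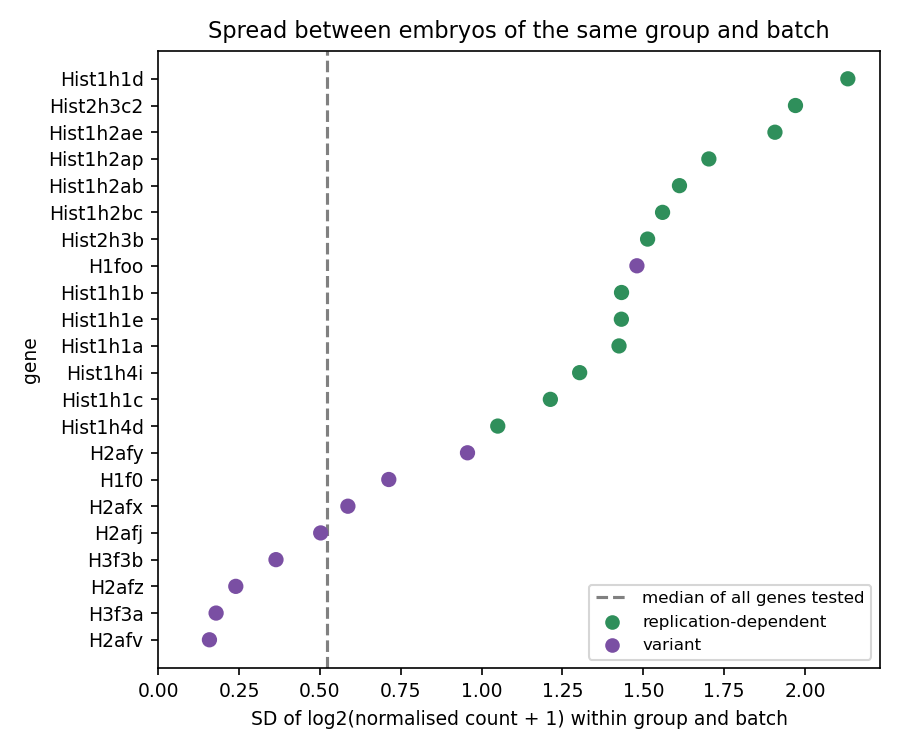
SD of log2(normalised count + 1) within group and batch for the 22 tested members, with the median of all genes tested as a dashed line. All 11 embryos enter, mutants 1 and 5 included. The 13 replication-dependent genes lie between 1.05 and 2.13 and the variant genes between 0.16 and 1.48.

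Variant histone mRNAs were abundant and varied less. *H3f3a* and *H3f3b*, which encode the same H3.3 protein, averaged 2026 ± 261 and 964 ± 279 TPM (SD, n = 11). *H2afz* and *H2afv*, which encode the H2A.Z proteins, averaged 1248 ± 295 and 347 ± 74.2 TPM. *H2afx*, whose product is phosphorylated at DNA breaks, averaged 106 ± 56.5 TPM, and *H2afj* averaged 43.8 ± 12.5 TPM. *H1f0*, a linker histone of non-dividing cells, *H2afy*, which encodes macroH2A, and *H1foo* averaged 6.19, 5.60 and 3.76 TPM. The 3 *H2afb* genes were listed at 0 in all embryos. The order of *H3f3b* and *H2afz* was not the same in all embryos, and their ranges of 655 to 1714 and 890 to 1740 TPM overlapped.

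The comparison of mutants with controls asked whether loss of *Prdm10* changed histone mRNAs. *Prdm10* itself was at 16.5 ± 4.62 TPM in controls (n = 6) and 6.66 ± 1.47 TPM in mutants (n = 5), without overlap. Since embryos were grouped by *Prdm10* cDNA and the TPM covers the whole gene, this is no independent check of the labels. With a DESeq2 adjusted p under 0.05, 0 of the 22 tested members were called, and 0 had an unadjusted p under 0.05. The background was 1.42% of 10448 genes in either direction, 0.861% lower and 0.555% higher in mutants, and 11.9% of genes had an unadjusted p under 0.05. The edgeR test called 0 of 28 members, against a background of 0.271%, and 0 had an unadjusted p under 0.05, against 8.7% of genes. The median log2 fold change of the 22 members was -0.10, beside 0.00 for all genes. *Hist1h2ap* had a log2 fold change of -0.27 (95% interval -1.78 to 1.24), and *H3f3a* one of -0.09 (-0.37 to 0.19). The interval of *Hist1h2ap* includes a change of more than 2-fold in either direction, so a difference of that size was not detectable with these embryos.

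Among the 22 members tested by DESeq2, the most negative genotype log2 fold change was that of *Hist1h1a*, an H1 gene (-1.07, 95% interval -2.55 to 0.41). It was -0.68 without control 6, -0.70 without mutant 5 and -1.69 without mutant 2. The most positive of the same 22 was that of *Hist1h2bc*, an H2B gene (0.60, -1.26 to 2.45). It ranged from 0.25 without control 3 to 1.64 without control 1, and was 0.37 without control 2, 0.34 without mutant 3 and 1.54 without control 6. *H3f3b* was at 1061 ± 349 TPM in controls and 847 ± 101 TPM in mutants (log2 fold change -0.39, -0.79 to 0.01), and its log2 fold change was -0.16 without control 1, the highest embryo at 1714 TPM. With mutants 1 and 5 both left out, 0 of 23 members were called (background 1.02%) and 4 had an unadjusted p under 0.05, against 11.3% of genes. Since those embryos were chosen for their low levels, the directions in that fit carry no weight. The log2 fold change of *Hist1h2ap* was 0.11 without mutant 5.

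The batches differed more. By DESeq2, 13 of 22 members were called between batch 1 and batch 2, 11 lower and 2 higher in batch 1. The background was 27.7% of genes in either direction, 13.8% lower and 14% higher. Of the 13 replication-dependent genes tested, 9 were lower in batch 1 and 0 higher. Their median log2 fold change was -2.21, beside -1.70 for all 22 members and 0.00 for all genes. The filter took the mean count over all embryos, so genes with low counts could pass it through batch 2 alone, where they were higher. Fits to a single batch tested 7 replication-dependent genes in batch 1 and 14 in batch 2. The count and the median for this class thus depend in part on the filter. The batches differ in PCR cycles and were also isolated and handled separately, and these cannot be told apart. The edgeR test called 12 of 28 members (background 19.7%), 10 lower (10.2%) and 2 higher (9.49%) in batch 1. One of the 2 was a replication-dependent H3 gene, *Hist2h3c1*, which was listed at 0 in all embryos of batch 2 and in control 6 and mutant 5, and read 1.47, 2.48 and 1.54 TPM in controls 4 and 5 and mutant 4. Its mean count was under the DESeq2 minimum, and all its 75-base windows occur in another annotated gene. With controls alone DESeq2 called 6 of 20 members (background 14.5%), all lower in batch 1 (6.76%).

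Other values moved with the batches. The 4 oviduct markers summed to 1.59 to 32.8 TPM in batch 2 and 0.00 to 0.81 TPM in batch 1. Almost all of this was *Ovgp1*, an oviduct glycoprotein gene, at 24.2, 3.51 and 1.45 TPM in the controls and 5.33, 15.7 and 30.1 TPM in the mutants of batch 2. It was highest in control 1 and mutants 2 and 3, which also had the highest replication-dependent sums. The defining markers *Foxj1*, *Pax8* and *Wt1* were at most 1.07 TPM. *Pou5f1*, *Tfap2c*, *Tead4*, *Klf5*, *Nanog* and *Cdh1*, of the 8 markers of 8-cell embryos, had higher means in batch 1 in both groups. *Pou5f1* averaged 199 TPM in controls and 439 TPM in mutants of batch 1, against 69.3 and 114 TPM in batch 2. For *Tead4* these means were 110 and 142 TPM against 53.0 and 74.0 TPM. *Tfap2c*, at 34.4 to 61.3 TPM in batch 2 and 75.4 to 131 TPM in batch 1, was the only one of the 8 whose ranges did not overlap. *Dppa3* had the lower means in batch 1, at 4627 TPM in controls and 4733 TPM in mutants against 5638 and 5133 TPM in batch 2. *Klf5* averaged 99.3 TPM in controls and 196 TPM in mutants of batch 1, against 94.8 and 156 TPM in batch 2. Genes annotated as rRNA took 7.57 ± 0.78% of TPM in batch 2 (6.48% to 8.50%) and 5.55 ± 0.94% in batch 1 (4.41% to 6.81%). The part of any of these in the batch difference of histone genes was not tested.

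*Hist1h1b* was at 85.2, 45.4 and 37.7 TPM in the controls and 3.66, 60.3 and 49.7 TPM in the mutants of batch 2, and at 5.88, 9.77 and 20.0 TPM in the controls and 6.52 and 1.41 TPM in the mutants of batch 1. Every embryo of batch 1 was thus below every embryo of batch 2 except mutant 1. Its log2 fold change was -2.86 ± 0.57 (SE, DESeq2 adjusted p = 1.394e-05). *Hist1h4d* fell by 1.87 on the log2 scale (adjusted p = 0.0004927) and *Hist1h2ab* by 2.53 (adjusted p = 0.001945). The other replication-dependent genes called were *Hist2h3c2*, *Hist1h2bc*, *Hist1h1a*, *Hist1h4i*, *Hist1h1e* and *Hist2h3b*, with log2 fold changes from -3.35 to -2.05. *Hist1h2ae* had one of -2.21 and was not called by DESeq2 (adjusted p = 0.06085), while edgeR called it (adjusted p = 0.04466), as did DESeq2 without control 6 (adjusted p = 0.03686). The call of *Hist1h2bc*, *Hist1h4i* and *Hist2h3c2* was lost without control 1, that of *Hist1h2bc* also without mutant 4, and that of *Hist1h1a* without mutant 2 or mutant 5. The edgeR test did not call *Hist1h1a* (adjusted p = 0.05924) or *Hist1h2bc* (adjusted p = 0.06284).

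*Hist1h2ap* was not called between the batches. It averaged 1992 ± 1219 TPM in batch 1 (n = 5) and 3006 ± 1512 TPM in batch 2 (n = 6), with a log2 fold change of -0.87 (95% interval -2.38 to 0.64), which was -0.48 without mutant 5 and -1.47 without mutant 4. The replication-dependent genes without *Hist1h2ap* summed to 106 ± 56.6 TPM in batch 1 and 390 ± 199 TPM in batch 2. The difference between these changes was not tested. Among variant genes, *H2afv* (-0.66 ± 0.14) and *H2afz* (-0.63 ± 0.17) were lower in batch 1, on the log2 scale with SE. *H2afx* (0.84 ± 0.29) and *H1f0* (1.2 ± 0.42) were higher. *H2afx* was at 0.46 and not called without mutant 5, and its call was also lost without control 3. The *H1f0* call was lost without control 2, control 3, control 5 or mutant 5, and by edgeR.

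**Figure D4:**
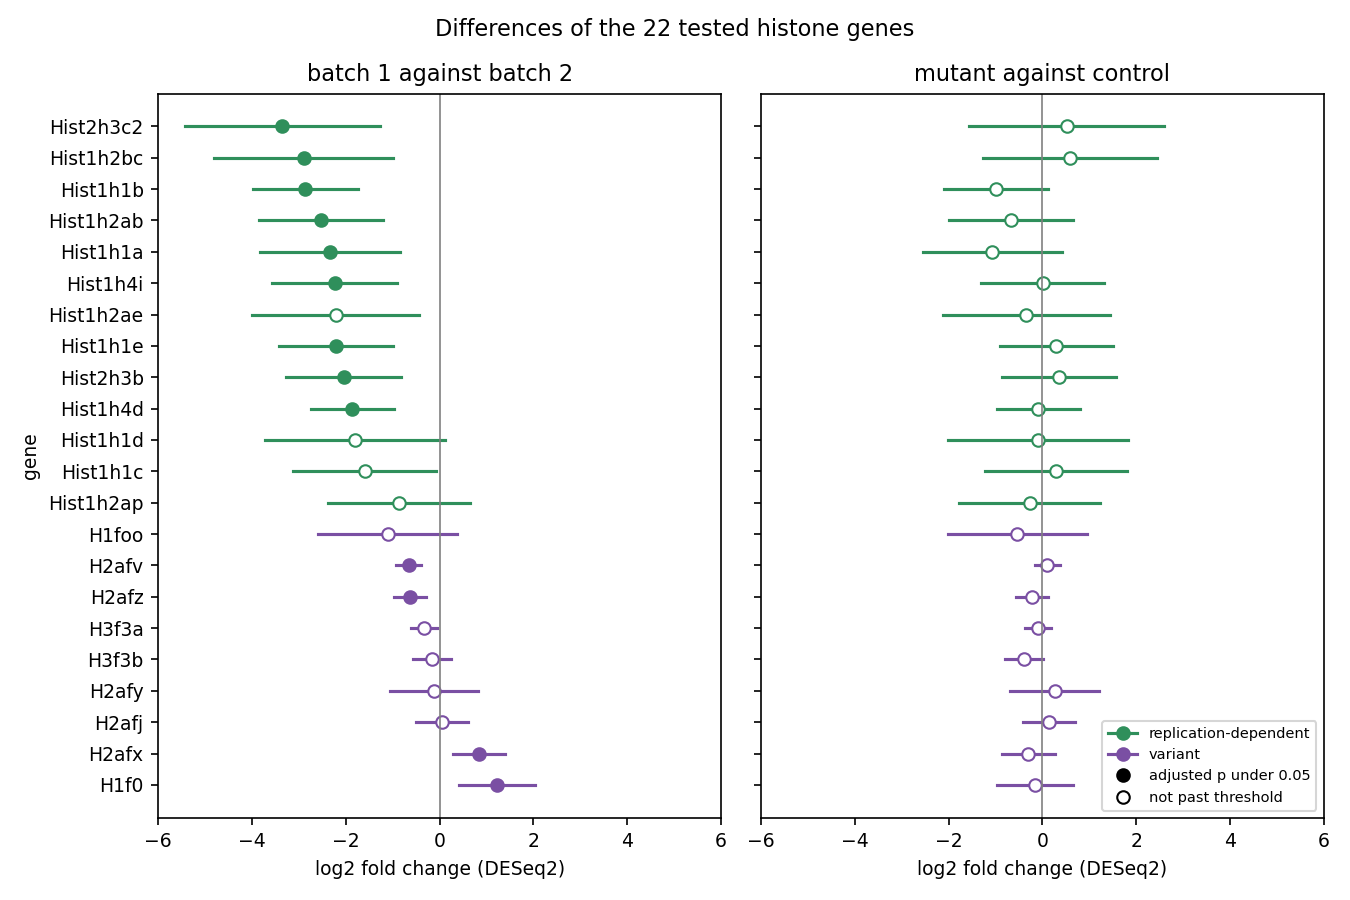
Log2 fold change (DESeq2) with its 95% interval for the 22 tested members, between batches (left) and between mutants and controls (right). Filled points passed an adjusted p of 0.05, 13 on the left and 0 on the right.

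A genotype effect that differed between batches was called for 0 of 22 members by DESeq2 (background 0.0573%), with 0 at an unadjusted p under 0.05, against 4.31% of genes. The edgeR test called 0 of 33 members, with 1 at that level, against 3.67% of genes. It called 0 of all 12740 genes.

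Genes that make, process or place histones were taken from a list of 53, of which 50 were tested. By DESeq2, 1 of the 50 was called between mutants and controls, beside 1.42% of all genes, and 8 had an unadjusted p under 0.05, beside 11.9%. The called gene was *Cpsf2*, a subunit of the complex that cleaves pre-mRNA 3′ ends, histone ones included. It was at 10.6 ± 3.18 TPM in controls and 5.38 ± 0.88 TPM in mutants (log2 fold change -0.99 ± 0.23 SE, adjusted p = 0.005016), with control 6 at 5.39 TPM inside the mutant range. By edgeR its adjusted p was 0.1387. *Slbp* was at 194 ± 40.4 TPM in controls and 138 ± 34.5 TPM in mutants (log2 fold change -0.44, DESeq2 adjusted p = 0.2158). In mutants 1 and 5 it read 136 and 175 TPM, within the range of the other embryos. *Npat* and *Casp8ap2*, which act in transcription of replication-dependent genes, had log2 fold changes of -0.57 and -0.26 (DESeq2 adjusted p = 0.09513 and 0.6084, with *Npat* at 0.03533 without mutant 1). The log2 fold change of *Casp8ap2* ranged from -0.33 to -0.15 with each embryo left out, the latter without control 1. For *Cenpa*, the centromeric H3 variant, it was -0.09 (DESeq2 adjusted p = 0.9413) and was 0.08 without mutant 2.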

How the data were processed

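Single-embryo Smart-seq2 libraries were sequenced by the authors as 75-base single-end reads, mapped to GRCm38.p6 with STAR (2.6.0c) and quantified with RSEM against GENCODE vM18. The deposited tables hold, per gene and embryo, the RSEM expected count, which divides shared reads among genes, and the TPM. The deposited comparison table of the authors holds their own DESeq2 fold changes and p-values, and was not used. Symbols, coordinates and transcripts came from GENCODE vM21, which matched 54079 of 54146 gene identifiers. Of 89 symbols that met the rule, 9 were not protein-coding and were left out.

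Expected counts were rounded and tested with DESeq2 (1.42.0) in R (4.3.3), with batch and group as terms, a mean normalised count above 10, Benjamini-Hochberg adjustment over all genes and a threshold of 0.05, to which the independent filter was also set. The study's methods use DESeq2 and do not state the filter's setting. The default setting of 0.1 was also run, after the data were seen. The edgeR (4.0.16) quasi-likelihood test and limma (3.58.1) on log2(TPM + 1) were alternatives. On counts simulated for the genotype comparison, DESeq2 made a larger share of false calls than its threshold allows, and edgeR a smaller share than DESeq2. Groups and batches came from the labels. Replicate numbers follow the order of the samples and pair no embryos. Whether embryos shared a litter is not given in the sources used here, so p-values measure the spread between these embryos. No molecular identifiers were used, so precision from counts covers counting error only. Summed expected counts ran from 3534735 to 8265840 per library.

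Members, gene lists and alternatives were chosen with earlier results of these data known. Named genes were variant genes with a mean of at least 1 TPM, the 12 replication-dependent genes with the highest mean TPM, members past a threshold, the members with the most positive and most negative genotype change among those tested by DESeq2, the called supply genes, *Slbp*, *Npat*, *Casp8ap2*, *Cenpa* and *Prdm10*. *Hist1h2ao*, *Hist1h2ac* and *Hist1h2be* were also named, for their sequence. Stem-loops were searched by a 16-base consensus on the transcript strand. Summed TPM of marker lists for other sources was at most 7.83 for cumulus and follicle cells, 32.8 for oviduct, 10.9 for blood and 16.2 for the 2-cell stage, and 30.8 to 63.0 for oocyte genes.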

Additional observations from a re-analysis of the deposited data

Results flagged for a closer look

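Over 56 sets of values (28 measures in each group), 5 held an embryo far from the others of its group by Dixon's ratio, and chance alone marks about 1 in 20 where a group is uniform. Each group here pools embryos of both batches, which were called different for these 5 genes, and batch was not taken into account. *H2afx* was at 213.16 TPM in mutant 5, against 71.87 TPM in the next highest mutant. Control 1 stood apart from the other controls for 4 replication-dependent genes, at 7.62 TPM for *Hist1h2bc* (next 1.42), 23.41 for *Hist1h4i* (next 7.17), 60.95 for *Hist2h3b* (next 23.29) and 29.28 for *Hist2h3c2* (next 10.53).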

How the results depend on the processing

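The count of members called between mutants and controls was 0 under every alternative run, and leaving out each embryo in turn gave 0 throughout. The batch count of 13 became 6 with controls only and 4 with a mean normalised count above 100, where only 9 members were tested, and ranged from 11 to 15 with each embryo left out. Under DESeq2's default filtering setting, added after seeing the data, the member counts were the same (0 and 13), with 141 and 2847 of all genes called in place of 148 and 2899. The count of 1 supply gene became 0 by edgeR, by limma, without a batch term and within either batch alone, and ranged from 1 to 2 with each embryo left out (2 without control 2, control 3 or mutant 1). The genotype log2 fold change of *Hist1h2ap* turned to 0.0005 in batch 2 alone, 0.1095 without mutant 5 and 0.4483 without mutants 1 and 5 together (range -0.8713 to 0.1095 with each embryo left out), and that of *Cenpa* to 0.4228 in batch 1 alone and 0.0815 without mutant 2 (range -0.2118 to 0.0815). None of these was called, and the cause was not tested. The mutant minus control difference of the mean log2 replication-dependent sum was -1.001 and ranged from -1.47 to -0.19 with each embryo left out. The SD of single embryos within groups, batches pooled, was 1.57. It is not the SE of that difference, which was not tested. No paired analysis was possible because replicate numbers were given in sample order. With 5 and 6 embryos, the 95% intervals in the report limit which changes of replication-dependent genes could be seen.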
